A study of Mus musculus with 8 samples.

Results

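The genes described here are 7 fetal growth genes, chosen by name: the RNA-binding protein genes *Lin28a*, *Lin28b*, *Igf2bp1*, *Igf2bp2* and *Igf2bp3*, and the chromatin protein genes *Hmga1* and *Hmga2*. Rows for 6 of them were read from a table of 20926 genes, and *Lin28a* was not analysed here. The study compared the mesenchyme of mouse molars at postnatal (PN) day 3, labelled as freed of epithelium, although epithelial transcripts were abundant in every library. The labels give the strain as C57BL/6, whereas the paper's methods describe the genetic background of its mice as mixed. There were 4 control libraries from Ezh2fl/fl mice, which carry floxed *Ezh2* alleles and no Cre, and 4 libraries from Osr2KI-Cre;Ezh2fl/fl mice, called *Osr2-Cre;Ezh2fl/fl* below. In the latter, *Ezh2*, which encodes the histone methyltransferase of a Polycomb complex, is recombined only in cells where the *Osr2* locus drives Cre, which are mesenchymal cells of the tooth and its bone, so epithelial cells keep the gene. The effect of losing *Ezh2* cannot be told apart from that of the Cre allele itself, which the control mice lack. The labels do not say whether each library came from a separate animal, so p-values measure only the spread between these samples.

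LIN28A and LIN28B bind precursors of the let-7 microRNAs and block their maturation, and they are known as markers of embryonic and fetal cells. The let-7 microRNAs in turn repress messenger RNAs that carry matching sites in the 3′ UTR, and the transcripts of *Hmga2*, the *Igf2bp* genes and *Lin28b* itself are among their best known targets. IGF2BP1, IGF2BP2 and IGF2BP3 bind messenger RNAs, *Igf2* among them, and affect their stability, transport and translation. HMGA1 and HMGA2 bind AT-rich DNA through short AT-hook motifs and bend it. Most of these genes are abundant in the embryo and decline with age.

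The let-7 microRNAs are shown because the sites for them are what the members share in sequence. In RefSeq (GRCm38.p6), 10 of 11 mouse let-7 family mature sequences carry the same seed, bases 2 to 8, which is in capitals.
let-7a-5p: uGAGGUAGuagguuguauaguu
let-7d-5p: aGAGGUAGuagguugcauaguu
let-7i-5p: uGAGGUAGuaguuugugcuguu
miR-98-5p: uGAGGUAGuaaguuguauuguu

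The complement of that seed is CTACCTC, and it was searched for on the sense strand of the longest annotated 3′ UTR of each gene in GENCODE release M21 (GRCm38). It occurred 4 times each in *Igf2bp1*, *Lin28b* and *Hmga2*, and once each in *Igf2bp2*, *Igf2bp3* and *Hmga1*. Among 13139 tested genes with a 3′ UTR, 10.5% held at least 1 such match and 0.0609% held at least 4. The 3′ UTR of *Igf2bp1* is long, 6337 bases against a median of 1231, and among the 471 tested genes with a 3′ UTR of like length *Igf2bp1* was the sole gene with at least 4. The sequences below show all 4 matches of *Igf2bp1*, the member that passed the test for a difference between the groups, and the first match of each other member, with the seed match in capitals. Of the 4 matches in *Igf2bp1*, 3 are followed by an A. In *Lin28b* and *Hmga2* the match shown is followed by an A and their other matches are not. A match to these letters is a description and not a site of measured binding, and microRNA levels were not measured in these libraries.
Igf2bp1 match 1, chr11:95961778-95961800, minus strand: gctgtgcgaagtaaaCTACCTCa
Igf2bp1 match 2, chr11:95959357-95959379, minus strand: cagcagtgctattaaCTACCTCa
Igf2bp1 match 3, chr11:95958763-95958785, minus strand: gtataaatggatgaaCTACCTCa
Igf2bp1 match 4, chr11:95958140-95958162, minus strand: acttttggttttaatCTACCTCt
Igf2bp2 match 1, chr16:22059473-22059495, minus strand: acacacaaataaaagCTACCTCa
Igf2bp3 match 1, chr6:49086787-49086809, minus strand: tgcatttttactcaaCTACCTCa
Lin28b match 1, chr10:45381022-45381044, minus strand: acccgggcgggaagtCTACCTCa
Hmga1 match 1, chr17:27563277-27563299, plus strand: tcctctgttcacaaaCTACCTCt
Hmga2 match 1, chr10:120364224-120364246, minus strand: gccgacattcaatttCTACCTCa

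The values are the authors' normalized values, which have nearly equal 75th percentiles in all libraries and no correction for gene length. The estimated depth was 48.3 to 68.8 M reads per library, where an estimated read number is the value divided by the smallest value of the library, minus 1. The dissected tissue was checked against markers. All 5 markers of dental mesenchyme were present in every library, with a summed value of 314 to 408 in control and 351 to 391 in *Osr2-Cre;Ezh2fl/fl* molars, and 1 of them, the LIM homeobox gene *Lhx8*, rose (log2 fold change 1.17, adjusted p = 0.00509 from limma). Epithelial transcripts were abundant in every library, with the basal keratin gene *Krt5* at 827 to 1992 and the enamel protein gene *Amelx* at 316 to 16250. The summed value of the ameloblast markers was 728, 2303, 15522 and 28283 in control libraries 1 to 4, against 1284, 830, 11283 and 677 in *Osr2-Cre;Ezh2fl/fl* libraries 1 to 4, and general epithelial markers summed to 1865 to 4245 and 1793 to 2516. The 4 odontoblast markers all had negative log2 fold changes, from -1.13 for *Dspp*, the dentin matrix gene, to -0.22, and summed to 8907 to 11047 and 7194 to 8916. The 3 endothelial markers summed to 264 to 294 and 225 to 249. The part of these markers in the results on the members was not tested beyond fits with the ameloblast markers as a covariate, given below. Of the markers tested, none of the ameloblast, epithelial, odontoblast, endothelial, muscle, blood, macrophage and osteoclast or Schwann cell markers passed the test. The targeted gene, *Ezh2*, had a value of 42.9 ± 8.03 in control and 31.1 ± 5.92 in *Osr2-Cre;Ezh2fl/fl* molars (SD, n = 4 each), with an adjusted p of 0.235 from limma (0.0274 with the ameloblast markers as a covariate), and the groups did not overlap, as was so for 2.77% of all tested genes in this direction.

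Of the 6 members, *Igf2bp1* was the only one that passed the test, and it was higher: its mean value in *Osr2-Cre;Ezh2fl/fl* molars was 2.27 times that in control molars. *Igf2bp2*, *Igf2bp3*, *Hmga1*, *Hmga2* and *Lin28b* did not pass the test. *Igf2bp2* and *Igf2bp3* had log2 fold changes of 0.16 and 0.21, the mean of *Lin28b* was 1.98 times that in control molars at very low values, and the *Hmga* genes lay on either side of 0. The test was limma's moderated test on log2(value + 1), over the 14854 genes that reached a value of 1 in 4 or more libraries, with Benjamini-Hochberg adjustment. All members but *Lin28b* passed that filter. Among all genes tested 1.56% were higher and 0.512% were lower at an adjusted p under 0.05, and the 5 members tested had 1 call, higher, and a median log2 fold change of 0.16 beside 0.01 for all genes tested. In these bulk samples, fewer cells of a type and less RNA per cell cannot be told apart.

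**Figure D1:**
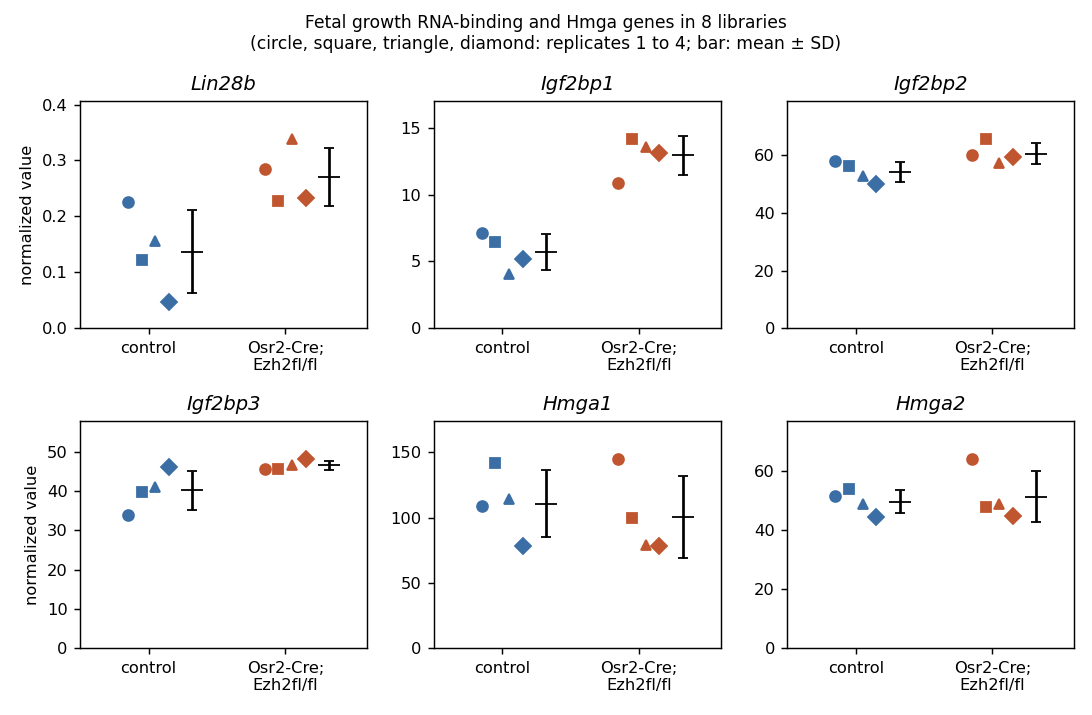
Normalized value (vertical axis, from 0, a separate scale in each panel) of the 6 members in each of the 4 control and 4 Osr2-Cre;Ezh2fl/fl libraries, with the mean and SD of each group beside the points. For Igf2bp1 the Osr2-Cre;Ezh2fl/fl libraries lie between 10.9 and 14.2, all above the control libraries at 4.02 to 7.14, while the groups overlap for Igf2bp2, Igf2bp3, Hmga1 and Hmga2.

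*Igf2bp1* encodes the family member that is mostly restricted to embryonic tissues, where it binds messenger RNAs such as *Myc* and *Actb*. It lies on the minus strand of chromosome 11 (mm10) from 95957163 to 96005941. Control libraries 1 to 4 gave values of 7.14, 6.42, 4.02 and 5.20, and *Osr2-Cre;Ezh2fl/fl* libraries 1 to 4 gave 10.9, 14.2, 13.6 and 13.1. Every *Osr2-Cre;Ezh2fl/fl* library was above every control library, and the lowest of them, library 1, was still above the highest control library, also library 1. The share of all tested genes whose groups were separated in this direction was 5.76%. The means were 5.70 ± 1.37 and 12.9 ± 1.42 (SD, n = 4 each). On the log2(value + 1) scale, which understates the change of low genes, limma gave a difference of 1.07 with a standard error of 0.15, a 95% interval of 0.73 to 1.42 and an adjusted p of 0.00895, which put *Igf2bp1* at rank 88 by p among the 14854 genes and above 99.6% of them in log2 fold change.

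The estimated reads behind these values were 233 to 478 in control and 574 to 1012 in *Osr2-Cre;Ezh2fl/fl* libraries, so counting error is small beside the spread between libraries. When any 1 library was left out, *Igf2bp1* kept a log2 fold change between 0.94 and 1.18, with adjusted p-values of 0.0114 to 0.0325 from limma. With the replicate number as a block *Igf2bp1* missed the threshold (log2 fold change 1.07, adjusted p = 0.0595 from limma). The ameloblast markers were highest in control libraries 3 and 4, which had the lowest *Igf2bp1*. *Osr2-Cre;Ezh2fl/fl* library 3 was the highest of its group in these markers (summed value 11283), with *Igf2bp1* at 13.6. With the level of the ameloblast markers as a covariate the log2 fold change of *Igf2bp1* was 0.96 (adjusted p = 0.0155 from limma). *Xist*, which is expressed in females, was low in control library 2 (0.373) and *Osr2-Cre;Ezh2fl/fl* library 1 (0.414), while the other libraries had 401 to 2648. *Ddx3y*, on chromosome Y, was under 1 only in *Osr2-Cre;Ezh2fl/fl* libraries 2 and 3, so 4 libraries (control 1, 3 and 4 and *Osr2-Cre;Ezh2fl/fl* 4) held both transcripts, with *Ddx3y* at 31.2 to 56.9. Whether these libraries pool animals is not given in the sources used here. With *Xist* as a covariate the log2 fold change of *Igf2bp1* was 1.07 (adjusted p = 0.0186 from limma).

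*Igf2bp2* is the family member that is also widely expressed in adult tissues, and it has a role in metabolism. It lies on the minus strand of chromosome 16 from 22059009 to 22163300. Control libraries 1 to 4 gave values of 57.9, 56.3, 52.8 and 50.2, and *Osr2-Cre;Ezh2fl/fl* libraries 1 to 4 gave 60.0, 65.8, 57.2 and 59.3. The groups overlapped only through *Osr2-Cre;Ezh2fl/fl* library 3, which was below control library 1. By limma its log2 fold change was 0.16 with a standard error of 0.07, a 95% interval of -0.01 to 0.32 and an adjusted p of 0.409. With the ameloblast markers as a covariate it was 0.09 (adjusted p = 0.555 from limma).

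*Igf2bp3*, an oncofetal relative that is closer in sequence to *Igf2bp1*, lies on the minus strand of chromosome 6 from 49085223 to 49214958. Control libraries 1 to 4 gave values of 34.0, 39.8, 40.9 and 46.0, and *Osr2-Cre;Ezh2fl/fl* libraries 1 to 4 gave 45.6, 45.5, 46.7 and 48.1. Control library 4 lay within the range of the *Osr2-Cre;Ezh2fl/fl* libraries, and the other 3 control libraries lay below it. The order of the control libraries was also their order in ameloblast markers. This did not hold in the *Osr2-Cre;Ezh2fl/fl* libraries, where library 4 had the lowest ameloblast sum (677) and the highest *Igf2bp3*. The part of these markers in the result was not tested beyond the covariate. By limma its log2 fold change was 0.21 with a standard error of 0.09, a 95% interval of 0.01 to 0.41 and an adjusted p of 0.344, and it was 0.29 with the covariate (adjusted p = 0.134 from limma). The spread differed between the groups, with a coefficient of variation of 12.3% in control and 2.54% in *Osr2-Cre;Ezh2fl/fl* molars.

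**Figure D2:**
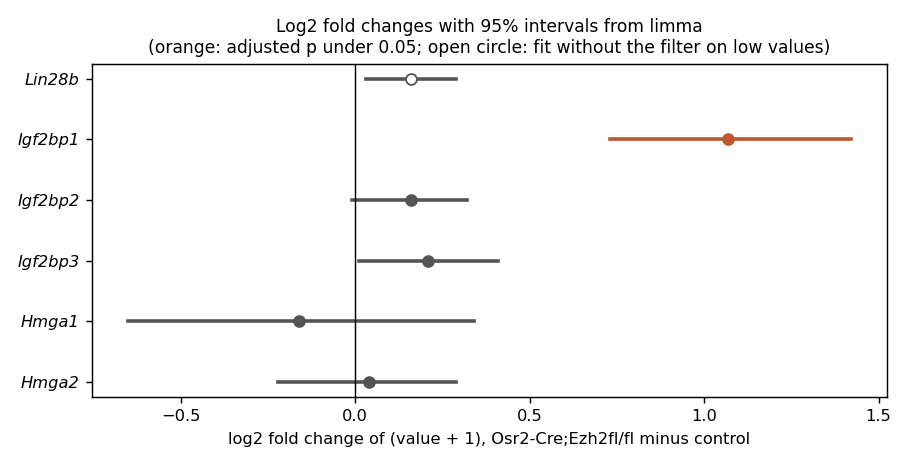
Log2 fold change of (value + 1) between Osr2-Cre;Ezh2fl/fl and control molars (horizontal axis) for each member, with the 95% interval from limma as a line. Only Igf2bp1, at 1.07, has an adjusted p under 0.05, and the intervals of Hmga1, Hmga2 and Igf2bp2 include 0.

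No window of 75 bases, the length of the reads, was shared between transcripts of the *Igf2bp* genes. Levels of the genes were compared with each other only after division by the length of the longest coding transcript. In value per kb, the control means were 13.9 for *Igf2bp2*, 9.25 for *Igf2bp3* and 0.68 for *Igf2bp1*. The control means of the other members were 55.5 for *Hmga1*, 13.1 for *Hmga2* and 0.0253 for *Lin28b*. *Igf2bp2* and *Hmga2* were neighbours in this order, with overlapping ranges of 12.9 to 14.9 and 11.7 to 14.1 per kb over the control libraries. Within each control library *Igf2bp2* was the higher, but division by all annotated exon bases turned the order of the control means round (7.33 and 7.35). *Hmga2* was above *Igf2bp3* in every control library (7.83 to 10.6 per kb for *Igf2bp3*) and in every *Osr2-Cre;Ezh2fl/fl* library (11.8 to 16.8 against 10.5 to 11.1). *Igf2bp1* stood far below its relatives in both groups, at 0.48 to 0.852 per kb in the control libraries and 1.30 to 1.69 in the *Osr2-Cre;Ezh2fl/fl* libraries.

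*Igf2bp1* made up 3.62%, 3.15%, 2.05% and 2.58% of the family's summed value per kb in control libraries 1 to 4, against 4.79%, 5.82%, 5.99% and 5.60% in *Osr2-Cre;Ezh2fl/fl* libraries 1 to 4. Its share was higher in every *Osr2-Cre;Ezh2fl/fl* library than in any control library. The mean share was 2.85% ± 0.683 and 5.55% ± 0.533 (SD, n = 4 each, two-sided exact permutation p = 0.0286, which is the lowest this design can reach, and 0.0572 after Benjamini-Hochberg adjustment over the 4 tests on the family). Division by all annotated exon bases gave mean shares of 4.57% and 8.77%. The shares of *Igf2bp2* (58.4% ± 4.01 and 55.9% ± 1.77) and *Igf2bp3* (38.8% ± 4.51 and 38.5% ± 1.72) had exact permutation p-values of 0.343 and 0.943 (adjusted 0.457 and 0.943, n = 4 each), and none of the 4 tests on the family had an adjusted p under 0.05. The summed value per kb of the family was 23.4 to 24.4 in control and 27.0 to 29.0 in *Osr2-Cre;Ezh2fl/fl* libraries. Its groups did not overlap (means 23.9 ± 0.443 and 27.8 ± 0.907, SD, n = 4 each, exact permutation p = 0.0286, adjusted 0.0572), although *Igf2bp2* and *Igf2bp3*, which make up most of it, did not pass the test on their own.

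**Figure D3:**
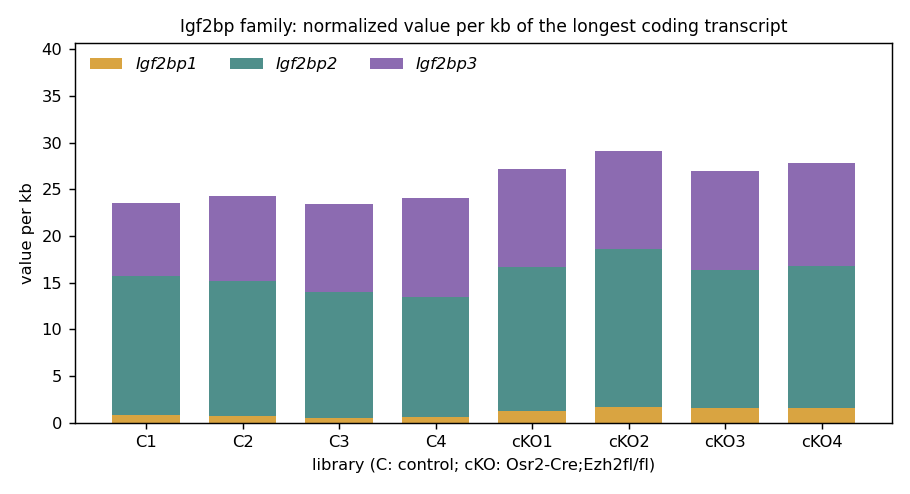
Normalized value per kb of the longest coding transcript (vertical axis, from 0) of the 3 Igf2bp genes, stacked for each library. The control stacks end at 23.4 to 24.4 and the Osr2-Cre;Ezh2fl/fl stacks at 27.0 to 29.0, and the thin lowest layer, Igf2bp1, is thicker in the Osr2-Cre;Ezh2fl/fl libraries.

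*Lin28b* lies on the minus strand of chromosome 10 from 45376620 to 45486396. It was close to the limit of detection in molar mesenchyme, at 0.226, 0.121, 0.155 and 0.0459 in controls 1 to 4, while *Osr2-Cre;Ezh2fl/fl* libraries 1 to 4 gave 0.284, 0.227, 0.339 and 0.232. These values stand for 12, 8, 8 and 2 estimated reads in the control and 14, 14, 23 and 17 in the *Osr2-Cre;Ezh2fl/fl* libraries. The groups did not overlap, but control library 1 and *Osr2-Cre;Ezh2fl/fl* library 2 were nearly equal. The means were 0.137 ± 0.0748 and 0.271 ± 0.0525 (SD, n = 4 each). *Lin28b* did not pass the filter on low values, and in the fit of all 20926 genes limma gave it a log2 fold change of 0.16 with a standard error of 0.06 and an adjusted p of 0.272. This value of *Lin28b* depends on the pseudocount, being 0.04 with a pseudocount of 5, 0.70 with 0.1 and 1.10 with 0.01, and it was 1.30 by limma's voom on estimated reads. None of these fits gave *Lin28b* an adjusted p under 0.05 (0.275 to 0.321), and the ratio of the means was 1.98.

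*Hmga2*, which promotes growth and self-renewal in fetal stem cells, lies on the minus strand of chromosome 10 from 120361275 to 120476470. Control libraries 1 to 4 gave values of 51.6, 53.9, 48.9 and 44.6, and *Osr2-Cre;Ezh2fl/fl* libraries 1 to 4 gave 64.2, 47.9, 48.9 and 44.9. The groups overlapped throughout, apart from *Osr2-Cre;Ezh2fl/fl* library 1, which was above all others. limma gave *Hmga2* a log2 fold change of 0.04 with a standard error of 0.11, a 95% interval of -0.22 to 0.29 and an adjusted p of 0.949, and without *Osr2-Cre;Ezh2fl/fl* library 1 it was -0.07. *Hmga2* and *Igf2bp1* each hold 4 let-7 seed matches, of which fewer are followed by an A in *Hmga2*, and only *Igf2bp1* passed the test.

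*Hmga1*, which is expressed in proliferating cells, is a plus-strand gene of chromosome 17 (27556620 to 27563675). Control libraries 1 to 4 gave values of 109, 142, 114 and 78.7, and *Osr2-Cre;Ezh2fl/fl* libraries 1 to 4 gave 145, 99.5, 79.4 and 78.7. Both groups spanned nearly the same range, with coefficients of variation of 23.4% and 30.8%. The difference was -0.16 on the log2 scale with a standard error of 0.22, a 95% interval of -0.65 to 0.34 and an adjusted p of 0.872 from limma. It moved to -0.03 without control library 2, -0.06 without *Osr2-Cre;Ezh2fl/fl* library 3, -0.05 without library 4 of that group, -0.31 without control library 4 and -0.34 without *Osr2-Cre;Ezh2fl/fl* library 1. The 13 proliferation genes, including *Mki67* and *Top2a*, summed to 1424, 1304, 1335 and 1149 in control libraries 1 to 4. In *Osr2-Cre;Ezh2fl/fl* libraries 1 to 4 they summed to 1223, 1313, 868 and 1444. Of these, only library 3 lay below the control range, and library 4 lay above it. None of the 13 passed the test, 11 had a negative log2 fold change where 54.1% of all genes tested had a positive one, and their median was -0.06. The part of library 3 in this count was not tested.

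Genes that GENCODE places on the opposite strand within the members are *Gm29202* for *Igf2bp1*, *Gm18010* and *Malsu1* for *Igf2bp3*, *AI413582* and *Gm49774* for *Hmga1*, and *1700006J14Rik* and *9230105E05Rik* for *Hmga2*. The use of strand in counting is not given in the sources used here, so reads of these pairs may not have been told apart. *Malsu1* (18.5 ± 2.06 in control and 20.9 ± 5.77 in *Osr2-Cre;Ezh2fl/fl* molars) and *AI413582* (4.72 ± 0.143 and 5.26 ± 1.22, SD, n = 4 each) did not pass the test, with adjusted p-values of 0.853 and 0.834 from limma.

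Genes of the processing and turnover of let-7 were next examined, 8 in all. None passed the test, and their median log2 fold change was -0.02, with a range from -0.12 for *Xpo5*, the exporter of microRNA precursors, to 0.06 for *Dgcr8*, the partner of Drosha. The genes of the uridylating enzymes that LIN28A recruits, *Zcchc11* and *Zcchc6*, had log2 fold changes of 0.03 and -0.03. The 7 proteins known to bind RNA together with IGF2BP1 were similar, with 0 genes passing and log2 fold changes from -0.09 for *Syncrip* to 0.08 for *Ybx1*.

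Of 13 other known let-7 targets tested, 1 rose and 0 fell, where 1.56% of all genes tested were higher. Their median log2 fold change was -0.04, beside 0.01 for all genes tested. The one that rose was *Nr6a1*, which encodes an orphan nuclear receptor of embryonic cells. Control libraries 1 to 4 gave values of 6.32, 6.85, 7.24 and 6.07, and *Osr2-Cre;Ezh2fl/fl* libraries 1 to 4 gave 9.34, 10.3, 9.82 and 9.20, without overlap. The difference was 0.49 on the log2 scale with a standard error of 0.09 and an adjusted p of 0.0235 from limma. Leaving out any 1 of control libraries 1 to 4 or *Osr2-Cre;Ezh2fl/fl* library 2 or 4 raised the adjusted p of limma to between 0.0607 and 0.0759, while the log2 fold change stayed between 0.45 and 0.53. Among the targets that did not pass were *Mycn* (log2 fold change -0.26), *Arid3a* (-0.13), *Arid3b* (-0.17) and *Igf1r* (0.03).

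Transcripts known to be bound by IGF2BP proteins, the noncoding *H19* among them, were tested as 9 genes, none of which passed, with a median log2 fold change of 0.03. The largest was that of *Igf2*, the fetal growth factor after which the family is named, for which control libraries 1 to 4 gave 226, 545, 335 and 442 and *Osr2-Cre;Ezh2fl/fl* libraries 1 to 4 gave 534, 520, 731 and 412. Its groups overlapped (log2 fold change 0.55, 95% interval -0.04 to 1.14, adjusted p = 0.436 from limma). *Myc* and *Actb* had log2 fold changes of -0.07 and -0.05, and *Mki67* had the lowest, -0.21.

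Genes linked to HMGA proteins in other tissues were tested as 10 genes, the member *Igf2bp2* among them. The list was chosen with earlier results of these data known. Of the 10 genes 1 rose and 0 fell, where 1.56% of all genes tested were higher. Their median log2 fold change was 0.24, beside 0.01 for all genes tested. The rise was that of *Cdkn2a*, a cell cycle inhibitor that HMGA2 is known to restrain in fetal stem cells, with means of 0.137 ± 0.0171 and 1.88 ± 0.299 (SD, n = 4 each, log2 fold change 1.34, adjusted p = 0.000439 from limma). The paper reports this rise by RNA-seq and, at a later age, by staining. It proposes that *Cdkn2a* may be a target downstream of Ezh2. Any part of HMGA2 in the rise was not tested here. *Cdkn2a* passed the filter on low values only through its *Osr2-Cre;Ezh2fl/fl* libraries, and in the fit without the filter limma gave an adjusted p of 0.00014. The ratio of the means of *Cdkn2a* was 13.8, and its log2 fold change depends on the pseudocount, from 0.42 with 5 to 3.68 with 0.01, and was 3.86 by voom. With the ameloblast markers as a covariate *Cdkn2b*, a neighbouring inhibitor gene, passed as well (log2 fold change 0.74, adjusted p = 0.0368 from limma, against 0.45 and 0.478 without it). It too met the filter through its *Osr2-Cre;Ezh2fl/fl* libraries (1.05 to 2.81, against 0.417 to 1.51 in control), so that pass is no support for a rise. The groups of *Cdkn2b* overlapped, and with the replicate block its adjusted p from limma was 0.671. *Junb* and *Jund*, transcription factor genes, had log2 fold changes of -0.53 and -0.37 (adjusted p = 0.0847 and 0.0959 from limma). The growth factor regulator *Plag1* had one of 0.50 (adjusted p = 0.335 from limma), with 26.7 in *Osr2-Cre;Ezh2fl/fl* library 3 and 12.3 to 14.6 in the other 3. Among 11 other high mobility group genes, 0 passed the test and the range was from -0.16 for *Hmgxb3* to 0.36 for *Hmgn3* (adjusted p = 0.0751 from limma).

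The genes whose pattern over the 8 libraries was most like that of *Igf2bp1* were *Glis1*, a Krüppel-like zinc finger gene, *Plagl1*, an imprinted zinc finger gene of fetal growth, and *Fgfr3*, a fibroblast growth factor receptor gene. Likeness was measured as the root mean square difference of log2(value + 1) after centring each gene on its mean, and it was 0.113, 0.118 and 0.141, where *Igf2bp1* itself varied by 0.577 around its mean. Their log2 fold changes were 0.92, 1.18 and 0.90, a difference between the groups that choosing them by the pattern of *Igf2bp1* fixed. *Igf2bp2*, *Igf2bp3* and *Hmga2* varied by only 0.109, 0.153 and 0.155 around their means, and 1098, 70 and 96 genes lay within 0.1 of them. A small distance from these 3 members therefore says little. *Hmga1* varied by 0.337, and 0 genes lay within 0.1 of it, as for *Igf2bp1*. The nearest genes were *Rcn2* for *Igf2bp2* (0.027), *Tagln2* for *Igf2bp3* (0.052), *Scel* for *Hmga1* (0.169) and *Lst1* for *Hmga2* (0.0583), and no member was among the 3 nearest of another.

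*Igf2bp1* lies near the *Hoxb* cluster, so the genes within 500 kb were examined, a choice made after the values were seen. Of 22 genes in this window, 11 passed the filter on low values and 0 of these passed the test, with a median log2 fold change of 0.00. The nearest tested genes on the *Hoxb* side, *Snf8*, *Ube2z* and *Atp5g1*, lie 28.9, 41.5 and 62.9 kb away and had log2 fold changes of -0.01, -0.01 and 0.00. *B4galnt2*, 42.3 kb away on the other side, was low in both groups (means 0.124 ± 0.0386 and 0.112 ± 0.0804, SD, n = 4 each). Beyond these, *Hoxb13* at 188 kb was at 0 estimated reads in the controls, against 9 to 23 in *Osr2-Cre;Ezh2fl/fl* molars (adjusted p = 0.0215 from limma without the filter), and *Hoxb3* at 317 kb had 0 to 3 and 4 to 29 (adjusted p = 0.136). The adjusted p of *Hoxb13* from limma rose to between 0.0534 and 0.0793 without any 1 of the control libraries or without *Osr2-Cre;Ezh2fl/fl* library 4, and was 0.0614 by limma without trend. *Ngfr*, 369 kb away on the other side, had the lowest log2 fold change of the window, -0.85 (adjusted p = 0.0777 from limma).

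**Figure D4:**
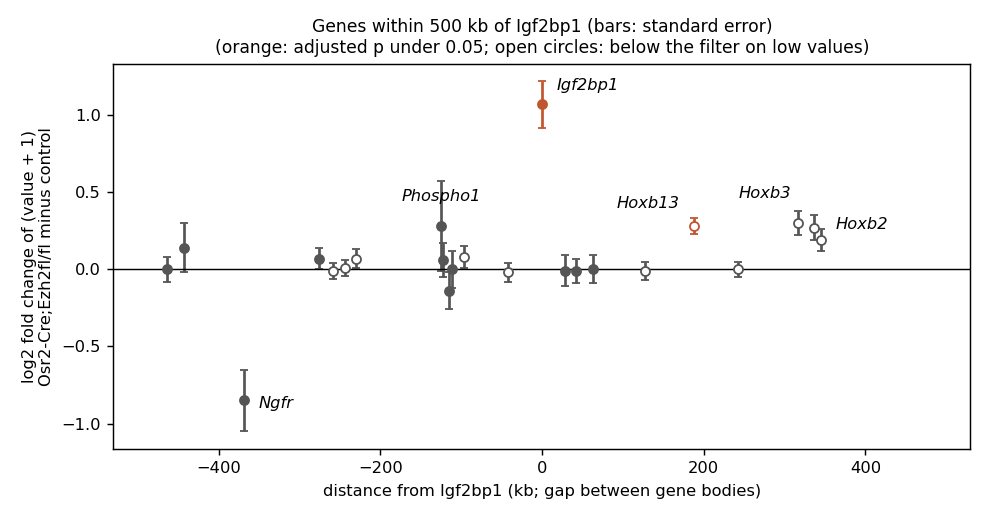
Log2 fold change of (value + 1) between Osr2-Cre;Ezh2fl/fl and control molars (vertical axis, with standard errors) against the distance from Igf2bp1 in kb (horizontal axis; positive values are on the Hoxb side) for the genes within 500 kb. Igf2bp1 stands at 1.07 while the 3 tested genes within 62.9 kb lie near 0, and Hoxb13, Hoxb3 and Hoxb2, with low values, lie above 0.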

How the data were processed

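RNA-seq values of molar mesenchyme at PN day 3 were analysed in 8 libraries, 4 per group, with groups taken from the sample titles. The paper's methods state that single-end reads of 75 cycles were aligned with TopHat to mm10 and normalized by RPKM, whereas the submitters' processing notes name STAR 2.5.3a, Partek and CASAVA 1.8.2, so the aligner cannot be settled. The values the authors deposited are handled as a normalized signal, because they carry no length factor, are never 0 and are not whole reads. They behave as reads plus 1, scaled by the authors to nearly equal 75th percentiles (38.455 to 38.463). The table has 0 other columns of samples. Single values carry counting error as well as the spread between libraries.

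The test was limma 3.58.1 (lmFit and eBayes with trend, under R 4.3.3) on log2(value + 1), for genes that reached a value of 1 in 4 or more libraries. A value of a single gene or share was also tested with a two-sided exact permutation test over 70 arrangements. The model was tested on simulated data first. The members, gene lists and tests were chosen with earlier results of these data known. From each list the genes with an adjusted p under 0.05 are named, and otherwise the largest rise and fall, and other names were picked with their values known. Coordinates follow the table (mm10), and gene models, lengths and 3′ UTRs are from GENCODE M21. The alternatives were pseudocounts of 0.1, 0.01 and 5, no filter and a filter at 10, median-of-ratios and quantile scaling, limma without trend, robust moderation, array weights, the replicate block, ameloblast markers or *Xist* as a covariate, voom on estimated reads, and each library left out. Some results are not reported here. Sequences came from RefSeq and GENCODE, and plots were drawn with matplotlib 3.10.9.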

Additional observations from a re-analysis of the deposited data

Results flagged for a closer look

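For the 6 members and 12 of the other genes named with their values, 36 groups of 4 libraries were examined on the log2(value + 1) scale for a library far removed from its group. There was 1 such library, where chance gives about 1.8. This was *Ezh2* in control library 1, at 55.0 against 38.3 to 39.6 in the other controls. None of the 6 members had such a library.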

How the results depend on the processing

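*Igf2bp1* had a positive log2 fold change (0.75 to 1.22) in every alternative run, and passed the test in all but the replicate block. The block gave a log2 fold change of 1.07 and an adjusted p of 0.0595, so that 0 members were called; that fit called 64 genes higher and 9 lower, against 232 and 76. The paper's methods speak of pairs of samples, fewer than the 4 libraries per group, without saying which libraries they are, and the labels give no shared litter or day. The correlations between same-numbered libraries of their deviations from the group means were -0.342, -0.0769, 0.215 and -0.434 for numbers 1 to 4, with 1 of 4 control libraries most like its own number, so the numbers were not taken as pairs. With the block *Nr6a1* and *Hoxb13* also missed the threshold (adjusted p of 0.152 and 0.112), and *Cdkn2a* and *Lhx8* passed it.

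Array weights (9.66 for *Osr2-Cre;Ezh2fl/fl* library 4, at most 2.31 elsewhere) called 2165 genes higher and 1875 lower, with 3 members higher and 1 lower: *Igf2bp1*, *Igf2bp2* (0.14) and *Igf2bp3* (0.24), and *Hmga1* (-0.52). The log2 fold change of *Hmga2* was -0.14 there, -0.0040 with the ameloblast covariate, -0.01 without control library 4, and -0.071 to 0.098 with each library left out (lowest without *Osr2-Cre;Ezh2fl/fl* library 1). A filter at a value of 10, which *Igf2bp1* passed only through its *Osr2-Cre;Ezh2fl/fl* libraries and which is therefore no support for its call, left 88 genes higher and 31 lower. Leaving out each library called 108 to 332 genes higher and 21 to 97 lower, with 1 and 0 members; of 8 such fits, control libraries 2, 3 and 4 and *Osr2-Cre;Ezh2fl/fl* libraries 2 and 4 lowered both counts by over 1.5 times. Median-of-ratios and quantile scaling moved the median of all genes from 0.0126 to -0.0167 and -0.00328 and changed no member's call. The cause of these changes was not tested.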

Other observations

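Genes with many let-7 seed matches were examined beyond the known targets, a choice made after the values were seen. Of the 13139 tested genes with a 3′ UTR, 8 held at least 4 matches: *Nr6a1* (8), *Mcf2l* and *Nudt12* (7 each), and *D10Wsu102e*, *Hic2*, *Hmga2*, *Igf2bp1* and *Zbtb37* (4 each). The annotated 3′ UTRs of *D10Wsu102e* and *Zbtb37* are very long, at 122583 and 16999 bases, where those of the other 6 have 2563 to 6337. *Igf2bp1* and *Nr6a1* rose in *Osr2-Cre;Ezh2fl/fl* molars, and the other 6 did not pass the test. *Mcf2l* had a log2 fold change of -0.16, *Nudt12*, *D10Wsu102e* and *Hic2* had 0.01 each, *Hmga2* had 0.04 and *Zbtb37* had 0.10. Over all genes the median log2 fold change was 0.0088 for the 11757 genes with no match, 0.003 for the 1215 genes with 1 match and 0.0049 for the 144 genes with 2 matches. The 23 genes with 3 or more matches, which include *Igf2bp1*, *Hmga2* and *Nr6a1*, had a median of 0.051, and 78.3% of them had a positive log2 fold change beside 52.9% of the genes with no match, 50.8% with 1 match and 50.7% with 2. The 23 include genes already known to be higher. These values are a description without a test.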
